A study of Homo sapiens with 12 samples.

Results

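The comparison asked how far the transcriptional response of sebocytes to UV-oxidised PAPC (UV-PAPC) differed between cells given an siRNA against OLR1 and cells given a scramble siRNA. For each gene it is the UV-PAPC minus untreated difference with OLR1 siRNA, minus the same difference with scramble siRNA, on the log2 scale, and is called the difference of responses here. A positive value means a larger rise or a smaller fall with OLR1 siRNA, and a value of 1 would be a 2-fold difference between the responses. The contrast uses all 12 of the 12 arrays of the series, in 4 groups of 3: scramble siRNA untreated, scramble siRNA with UV-PAPC, OLR1 siRNA untreated and OLR1 siRNA with UV-PAPC. All 4 groups were SZ95 cells, an immortalised human sebaceous gland line, and all had been transfected by lipofection, so the untreated groups carry an siRNA too. UV-PAPC was added at 25 µg/ml, 24 h after transfection. The sources used here do not state the length of exposure, the siRNA sequences or whether several siRNAs were pooled. No group is labelled as vehicle, unoxidised PAPC or untransfected cells, so the contrast cannot separate the oxidised lipid from its carrier, or the loss of OLR1 from other effects of 1 siRNA preparation.

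OLR1 encodes LOX-1, a lectin-like scavenger receptor of the cell surface that binds and takes up oxidised low-density lipoprotein and passes signals on to small GTPases, NADPH oxidase and NF-kB. PAPC is an arachidonate-containing phosphatidylcholine, and its oxidation products are known to react with protein thiols, to activate NRF2 and the heat shock and unfolded protein responses, and to act through receptors including Toll-like, prostanoid and scavenger receptors. In skin, oxidised phospholipids form under ultraviolet light and meet sebocytes, the lipid-producing cells of the sebaceous gland.

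On the deposited log2 scale, OLR1 itself stood at 6.18, 5.56 and 5.35 on the untreated scramble arrays and at 6.19, 5.49 and 5.74 with UV-PAPC. With OLR1 siRNA it stood at 4.66, 4.38 and 4.48 untreated and at 4.47, 4.33 and 4.41 with UV-PAPC. Every OLR1 siRNA array was below every scramble array, and within each siRNA the treated and untreated arrays overlapped. The difference of responses of OLR1 was -0.21 (95% interval -0.75 to 0.33, limma adjusted p = 0.943). KRT7, a keratin of glandular epithelium, lay at the 99 to 99.4 percentile of all genes on every array, while the late sebaceous genes ELOVL3 and AWAT2 lay between the 7.85 and 16.9 percentiles. Of 28 sebocyte markers, 15 lay above the 50 percentile on every array and 13 did not. Among the 13 were KRT15 at 25.5 to 40.2 and PLIN1 at 33.6 to 38.5. Of the defining markers of other cells, PTPRC of leukocytes stayed at or under the 6.68 percentile, DCN of fibroblasts at or under 4.32, MLANA of melanocytes at or under 8.79 and PECAM1 of endothelium at or under 16.2. Other genes of the same marker lists were brighter: 6 of 21 fibroblast, 1 of 10 melanocyte, 2 of 15 leukocyte and 1 of 12 endothelial markers lay above the 50 percentile on every array. Among them were COL6A1 at 70.1 to 76, MITF at 79.2 to 86.2, CORO1A at 77.1 to 83.1 and CDH5 at 74.9 to 86.3. These ranks set probe sets of different brightness side by side and are a rough guide only. Replicate arrays correlated at 0.996 to 0.998 and arrays of different groups at 0.988 to 0.995.

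No gene passed the test for a difference of responses: limma called 0 of 18417 genes (0%) at an adjusted p under 0.05, and the lowest adjusted p was 0.52. At an unadjusted p under 0.05 there were 1004 genes (5.45%), 475 of them higher with OLR1 siRNA (2.58%) and 529 lower (2.87%). The count stayed at 0 under every other setting tried, and also when only the 2574 genes called in the average of both responses were tested, where the lowest adjusted p was 0.151. In the same fit 1347 genes (7.31%) were called in the response with scramble siRNA, 1236 (6.71%) in the response with OLR1 siRNA and 4242 (23%) in the average effect of OLR1 siRNA itself. The count for scramble siRNA was 868 without replicate 1 of the untreated scramble arrays. The siRNA thus went with called differences in level, while the responses to UV-PAPC differed by less than the arrays could separate gene by gene after adjustment. An average effect has a smaller SE than the difference of responses, so these counts do not compare effects at equal precision.

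The intervals give, gene by gene and before adjustment, the differences that the arrays leave possible. They do not give the size needed for a call over all genes, which is larger. The SE of a difference of responses, which sums the error of 4 group means, had a median of 0.116, and the median interval reached 0.25 to either side. For 16365 genes (88.9%) the whole 95% interval lay inside ±0.5 on the log2 scale, and for 18399 genes (99.9%) inside ±1, a 2-fold difference. No measured difference reached 1, and 39 genes (0.212%) reached 0.5 in size. They ran from -0.81 for the antisense RNA LIMD1-AS1 to 0.69 for the small nucleolar RNA SNORD12C, which also had the lowest unadjusted p-value of all genes, 5.15e-05 in the limma fit. A gene alone at the top of the ranking would have needed 2.72e-06. Across genes the responses with both siRNAs correlated at r = 0.707, and at 0.94 over the genes called in the average response, a set chosen on the sum of the same responses, which raises r by construction. This is a description across genes, which are not independent replicates, and all arrays had been normalized together.

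**Figure D1:**
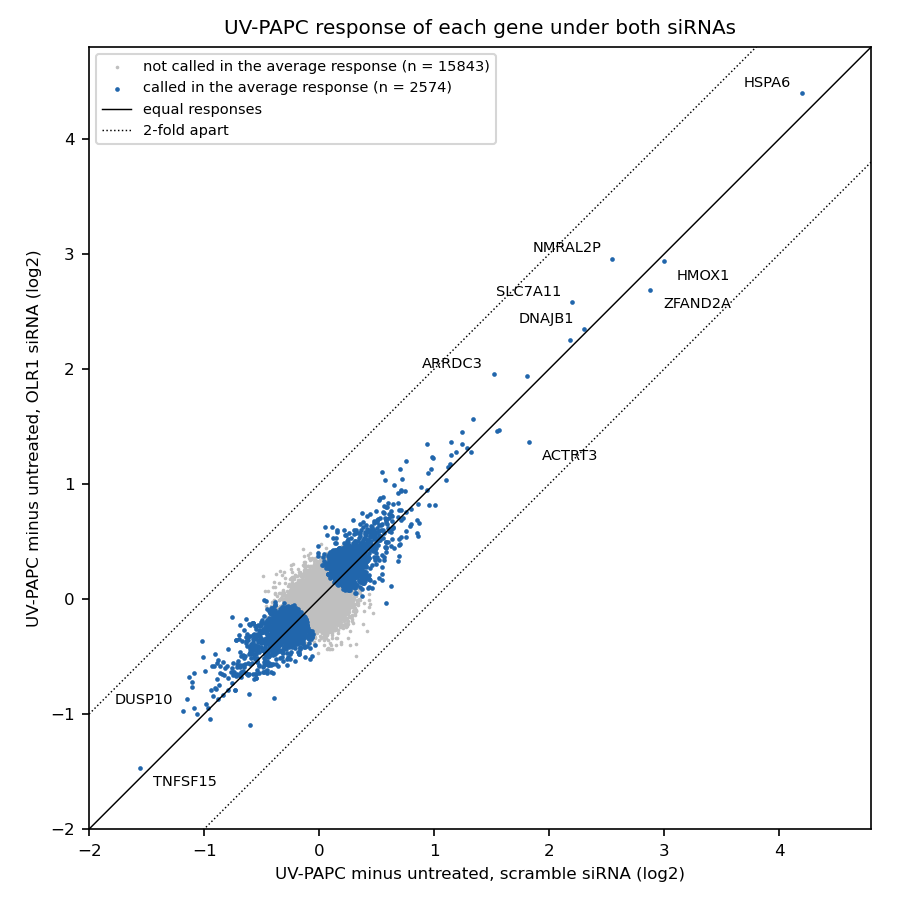
UV-PAPC minus untreated with scramble siRNA (horizontal axis, log2) against the same with OLR1 siRNA (vertical axis, log2), 1 point for each of 18417 genes, with the 2574 genes called in the average response in blue. The points run along the solid line of equal responses from TNFSF15 at the lower left to HSPA6 at the upper right, and none lies beyond the dotted lines, which stand for responses 2-fold apart.

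The 10 genes that rose most in the average response were HSPA6, HMOX1, ZFAND2A, NMRAL2P, SLC7A11, DNAJB1, DNAJB4, DNAJA4, ARRDC3 and ACTRT3, and the 10 that fell most were TNFSF15, DUSP10, MACC1, NECTIN4, FST, GRHL3, CYP1B1, ELF3, LIF and IL24. HSPA6, a stress-inducible Hsp70 chaperone that is nearly silent in resting cells, read 7.04, 6.97 and 7.35 on the untreated scramble arrays and 11.45, 11.30 and 11.20 with UV-PAPC. With OLR1 siRNA it read 6.60, 6.38 and 6.29 untreated and 11.02, 10.88 and 10.56 with UV-PAPC. The treated arrays were far above the untreated ones with both siRNAs, by 18.3-fold with scramble and 21.1-fold with OLR1 siRNA, and both OLR1 siRNA groups lay below the matching scramble groups without overlap. Its difference of responses was 0.20 (SE 0.17, interval -0.16 to 0.56, limma adjusted p = 0.931). HMOX1, which encodes the haem-degrading enzyme haem oxygenase 1, rose by 3.00 log2 units (SE 0.10) with scramble siRNA and by 2.94 (SE 0.10) with OLR1 siRNA. The interval of its difference, -0.36 to 0.24, lay well inside a 2-fold difference in either direction. DNAJB1, an Hsp40 co-chaperone of Hsp70, rose by 2.31 with scramble siRNA and by 2.35 with OLR1 siRNA. For this gene and for DNAJB4 and CYP1B1 the sign of the difference, which was under 0.1 in size, turned with the scaling of the arrays. Hsp70 genes share long stretches of sequence, so their probe sets can take up signal from one another, and RMA compresses large fold changes.

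All 20 of these genes were called with both siRNAs, and their treated and untreated arrays did not overlap with either. Over all genes 24.1% had treated and untreated arrays apart with scramble siRNA and 23.7% with OLR1 siRNA. The interval of the difference of responses included 0 for 15 of the 20 and lay inside ±1 for all 20. The response with OLR1 siRNA was between 0.656 and 1.291 times that with scramble siRNA on the log2 scale. The intervals that excluded 0, before any adjustment, belonged to 5 genes. SLC7A11, the cystine importer that feeds glutathione synthesis, read 8.11, 7.98 and 8.10 untreated and 10.38, 10.23 and 10.18 with UV-PAPC under scramble siRNA. Under OLR1 siRNA it read 7.42, 7.42 and 7.64 untreated and 10.21, 10.02 and 9.99 with UV-PAPC. The untreated arrays were lower with OLR1 siRNA and did not overlap, while the treated arrays of both siRNAs did overlap. Its difference was 0.38 (interval 0.12 to 0.64, limma adjusted p = 0.882). NMRAL2P, an NRF2-driven pseudogene transcript, had a difference of 0.41 (0.12 to 0.71, adjusted p = 0.882). ARRDC3, an alpha-arrestin that acts in receptor trafficking, had one of 0.44 (0.05 to 0.84, adjusted p = 0.904). LIF and IL24, both cytokines, fell under both siRNAs. LIF fell by 1.11 with scramble and by 0.76 with OLR1 siRNA, a difference of 0.35 (0.09 to 0.60, adjusted p = 0.883). None of the 5 passed the test over all genes.

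**Figure D2:**
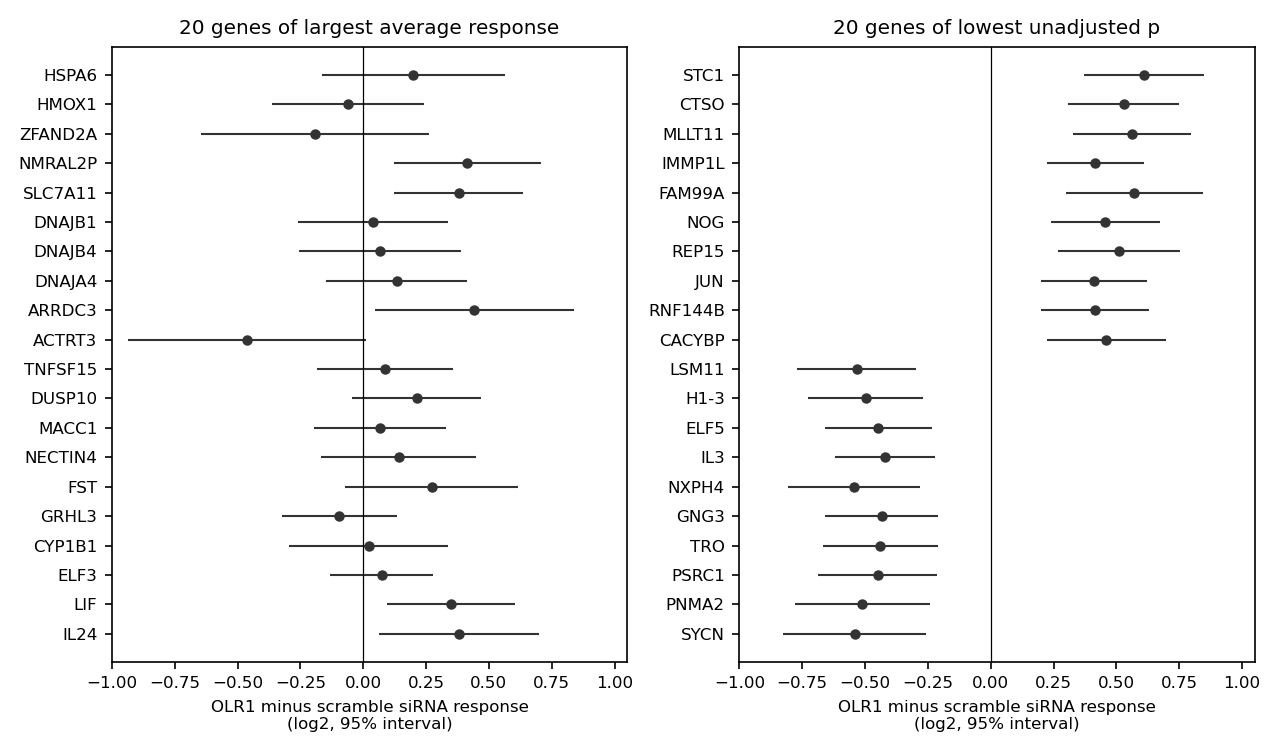
Difference of responses (points, log2) with its 95% interval from limma (lines), at left for the 20 genes of largest average response and at right for the 20 named genes of lowest unadjusted p. At left 15 of 20 intervals cross 0 and all lie inside ±1; at right every interval excludes 0 because the genes were chosen by that p, and none of the 20 passed the adjusted threshold.

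Ranked by p in the difference, the first 10 genes in each direction are described next. They did not pass the test, and their intervals exclude 0 because of how they were chosen. The higher 10 were STC1, CTSO, MLLT11, IMMP1L, FAM99A, NOG, REP15, JUN, RNF144B and CACYBP. The lower 10 were LSM11, H1-3, ELF5, IL3, NXPH4, GNG3, TRO, PSRC1, PNMA2 and SYCN. For 13 of the 20 the responses had opposite signs, and 13 of the 20 had a mean signal below that of the median gene. Of the responses of these genes, 6 were called only with scramble siRNA, 7 only with OLR1 siRNA, 4 with both and 3 with neither. Over all 18417 genes, 584 were called only with scramble siRNA, 473 only with OLR1 siRNA and 763 with both. Choosing genes by p in the difference favours opposite signs and calls under 1 siRNA alone, so these counts partly follow from the choice. For 15 of the 20 the siRNA effect was larger in untreated than in treated cells.

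STC1, which encodes the secreted glycoprotein hormone stanniocalcin 1, had the lowest p among named genes. It read 8.18, 8.16 and 8.17 on the untreated scramble arrays and 7.45, 7.38 and 7.40 with UV-PAPC. With OLR1 siRNA it read 6.90, 6.80 and 6.72 untreated and 6.67, 6.81 and 6.48 with UV-PAPC. The scramble groups were far apart, whereas the OLR1 siRNA groups were both lower and overlapped. STC1 fell by 0.76 (SE 0.08) with scramble siRNA, its response with OLR1 siRNA was -0.15 (SE 0.08), and its difference was 0.61 (interval 0.37 to 0.85, limma adjusted p = 0.52). NOG, the secreted BMP antagonist noggin, read 8.31, 8.25 and 8.49 untreated and 7.19, 7.18 and 7.29 treated under scramble siRNA. With OLR1 siRNA NOG read 7.93, 7.87 and 7.96 untreated and 7.25, 7.29 and 7.19 treated. The treated groups overlapped at the same level and the untreated groups did not. NOG fell with both siRNAs, by 1.13 with scramble and by 0.68 with OLR1 siRNA, and the difference was 0.45 (0.24 to 0.67, adjusted p = 0.52).

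Higher with OLR1 siRNA in the same way, from a lower untreated level, were MLLT11 and CACYBP. MLLT11, a small protein first known as a fusion partner of MLL in leukaemia, read 9.15, 9.11 and 9.05 untreated and 9.64, 9.74 and 9.56 treated with scramble siRNA. With OLR1 siRNA MLLT11 read 8.29, 8.19 and 8.38 untreated and 9.49, 9.27 and 9.43 treated. It rose by 0.55 with scramble and by 1.11 with OLR1 siRNA, a difference of 0.56 (0.33 to 0.80, adjusted p = 0.52). The siRNA gap in MLLT11 was -0.81 in untreated cells and -0.25 with UV-PAPC. CACYBP, a co-chaperone that links Hsp90 and the ubiquitin ligase SIAH1, read 10.40, 10.35 and 10.12 untreated and 10.87, 10.93 and 10.80 treated with scramble siRNA. With OLR1 siRNA CACYBP read 9.66, 9.77 and 9.80 untreated and 10.86, 10.74 and 10.74 treated, so that the treated groups overlapped and the untreated groups did not. CACYBP rose by 0.57 with scramble and by 1.03 with OLR1 siRNA, a difference of 0.46 (0.22 to 0.70, adjusted p = 0.74). That value was 0.2 at the lowest among the alternatives. JUN, the AP-1 transcription factor subunit, rose with OLR1 siRNA by 0.53 (SE 0.07), with arrays at 8.48, 8.38 and 8.38 untreated and 8.98, 8.98 and 8.87 treated. With scramble siRNA JUN read 8.66, 8.61 and 8.76 untreated and 8.82, 8.86 and 8.70 treated, which overlapped, and its response there was 0.12 (adjusted p = 0.402). The difference for JUN was 0.41 (0.20 to 0.62, adjusted p = 0.74).

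**Figure D3:**
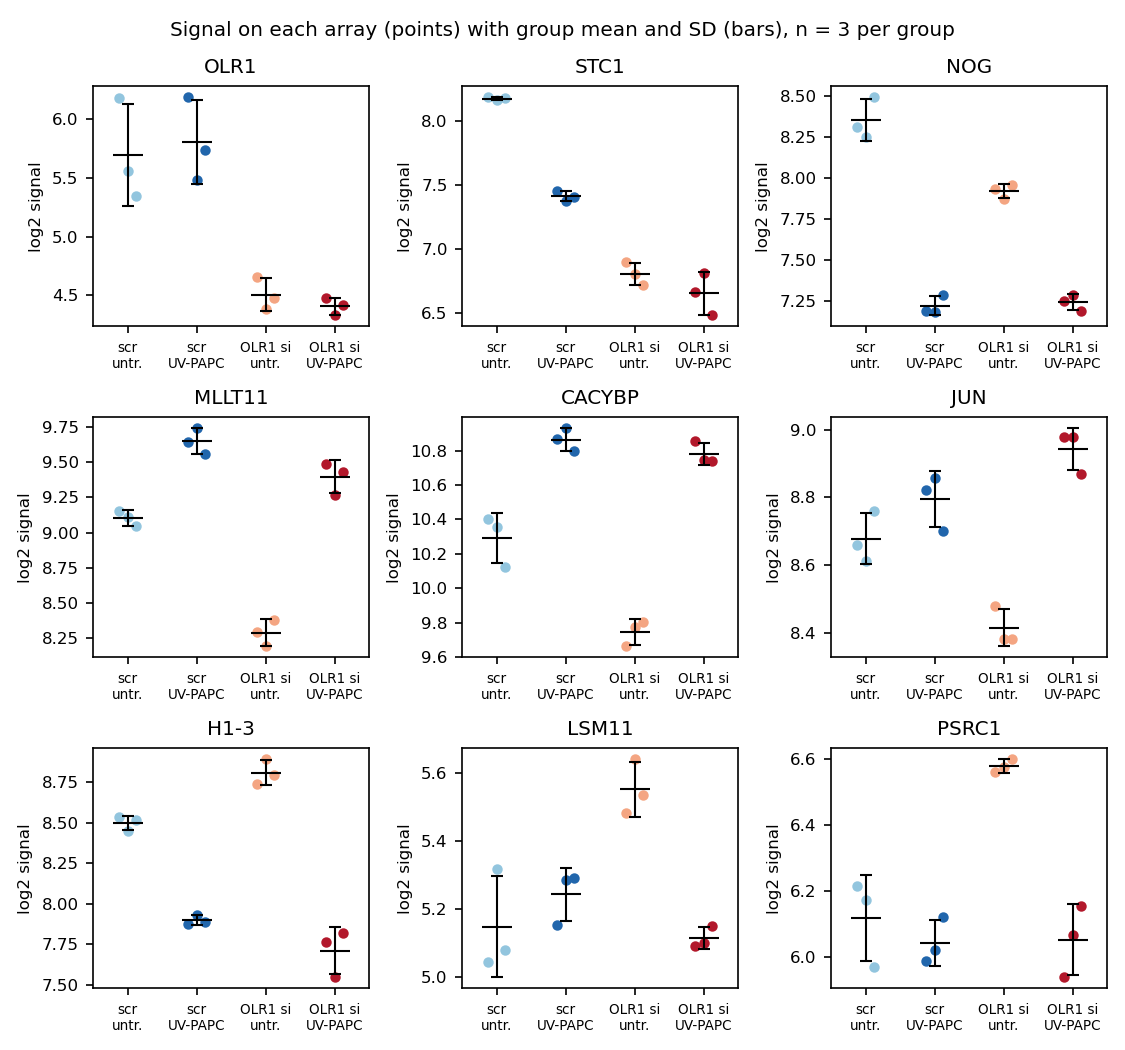
Signal on each array (points, log2) with the group mean and SD (bars, n = 3) for OLR1 and 8 of the genes of lowest p in the difference; scr is scramble siRNA and untr. is untreated. For NOG, CACYBP and PSRC1 the UV-PAPC groups of both siRNAs are close and the untreated groups apart, whereas for STC1 the groups with OLR1 siRNA are both low; each panel has its own vertical scale, which does not start at 0.

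Among the lower genes, H1-3, a linker histone, read 8.53, 8.45 and 8.52 untreated and 7.87, 7.93 and 7.89 treated with scramble siRNA. With OLR1 siRNA H1-3 read 8.74, 8.89 and 8.80 untreated and 7.77, 7.55 and 7.82 treated. It fell with both, by 0.60 with scramble and by 1.10 with OLR1 siRNA, a difference of -0.50 (interval -0.73 to -0.27, limma adjusted p = 0.52). Linker histone genes are close copies of one another, so this value may hold signal from others. PSRC1, a protein of the mitotic spindle, read 6.56, 6.58 and 6.60 untreated with OLR1 siRNA and 5.94, 6.07 and 6.15 treated, and fell by 0.53. With scramble siRNA PSRC1 read 6.22, 6.17 and 5.97 untreated and 5.99, 6.02 and 6.12 treated, which overlapped. LSM11, a component of the U7 particle that processes histone messenger RNA, read 5.48, 5.64 and 5.53 untreated and 5.09, 5.10 and 5.15 treated with OLR1 siRNA. With scramble siRNA LSM11 read 5.05, 5.32 and 5.08 untreated and 5.15, 5.29 and 5.29 treated. Only the untreated OLR1 siRNA group of LSM11 stood apart from the others, and the difference was -0.53 (-0.77 to -0.30, adjusted p = 0.52). ELF5, an epithelial transcription factor, and IL3, a haematopoietic cytokine, lay at low signals. ELF5 had group means of 4.42 and 4.66 with scramble and of 4.62 and 4.42 with OLR1 siRNA, untreated and treated, a difference of -0.45 (adjusted p = 0.52). IL3 had a difference of -0.42 (adjusted p = 0.52), from group means that all lay between 4.39 and 4.70.

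Promoter sequences of RefSeq (build GRCh38.p14) were searched for the letters of NRF2 sites and heat shock elements. They are shown for HSPA6, the gene of largest response, and for CACYBP, MLLT11 and JUN, which had a larger rise with OLR1 siRNA before adjustment. All of those shown hold a match, so they do not stand for the other named genes. FAM99A, REP15 and RNF144B, also among the higher genes in the difference, held neither kind of match and are not shown. Each line gives the 250 bases before the annotated start, 5′ to 3′ on the gene's strand: HSPA6 at chr1:161524290-161524539 (+), CACYBP at chr1:174999185-174999434 (+, the first of its annotated starts), MLLT11 at chr1:151060147-151060396 (+) and JUN at chr1:58784048-58784297 (-). Capitals mark the letters TGACNNNGC, the core of the antioxidant response element that NRF2 binds, or GAANNTTC, a pair of facing heat shock element units, on either strand.
HSPA6: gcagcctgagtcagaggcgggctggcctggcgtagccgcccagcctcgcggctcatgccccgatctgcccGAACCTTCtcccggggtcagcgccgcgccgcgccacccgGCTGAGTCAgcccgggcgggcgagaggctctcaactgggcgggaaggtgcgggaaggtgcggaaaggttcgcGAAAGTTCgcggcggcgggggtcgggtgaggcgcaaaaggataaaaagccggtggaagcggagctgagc
CACYBP: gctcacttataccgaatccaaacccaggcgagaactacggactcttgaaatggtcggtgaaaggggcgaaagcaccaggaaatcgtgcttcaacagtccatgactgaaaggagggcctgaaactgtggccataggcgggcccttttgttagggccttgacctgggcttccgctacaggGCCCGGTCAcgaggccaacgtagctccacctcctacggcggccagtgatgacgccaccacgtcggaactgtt
MLLT11: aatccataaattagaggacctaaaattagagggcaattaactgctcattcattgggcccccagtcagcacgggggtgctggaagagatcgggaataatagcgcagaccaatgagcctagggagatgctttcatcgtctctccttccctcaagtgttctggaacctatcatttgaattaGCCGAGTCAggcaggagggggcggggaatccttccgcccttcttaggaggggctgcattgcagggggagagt
JUN: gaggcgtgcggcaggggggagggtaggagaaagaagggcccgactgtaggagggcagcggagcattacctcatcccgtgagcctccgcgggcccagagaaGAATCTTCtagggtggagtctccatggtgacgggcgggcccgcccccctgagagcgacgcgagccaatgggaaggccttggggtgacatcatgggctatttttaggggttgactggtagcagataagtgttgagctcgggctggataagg
HSPA6 holds 2 heat shock matches and 1 NRF2 match, which do not overlap, CACYBP and MLLT11 hold 1 NRF2 match each, and JUN holds 1 heat shock match. Over all 35116 RefSeq windows of 300 bases, from 250 before to 50 after the start, 13.3% held the NRF2 letters and 6.77% the heat shock letters. Of the 10 genes that rose most 7 had an entry, and HSPA6 was the only one of these with the heat shock letters, while 3 held the NRF2 letters; the windows of DNAJB1, DNAJB4 and DNAJA4 held neither. Of the 10 higher genes in the difference 7 had a promoter entry, and 3 of these held the NRF2 letters and 1 the heat shock letters. Of the 10 lower genes 8 had an entry, with 0 and 1. A further search for TGATGNAAT, the ATF4 site, found it in none of these 15, against 0.991% of all windows, and TATAAA, the TATA box, was in 1 of the 7 and 2 of the 8, against 11.5%. A match describes the letters of the window and not binding.

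Calls under 1 siRNA alone were frequent, and for none of these genes did the difference of responses pass the test. Both responses shared 763 calls, 56.6% of those with scramble siRNA and 61.7% of those with OLR1 siRNA, all in the same direction, with 348 that rose and 415 that fell. A further 584 genes were called only with scramble siRNA and 473 only with OLR1 siRNA. Of the 584, 541 had the same sign with OLR1 siRNA, and the interval of the difference included 0 for 450 (77.1%). Of the 473, 435 had the same sign with scramble siRNA, and the interval included 0 for 351 (74.2%). Over all genes the interval excluded 0 for the 5.45% at an unadjusted limma p under 0.05. A call under only 1 siRNA selects genes with larger differences by construction, so these shares are not a test of equal responses. The difference itself was called for 0 of either set by limma, with a lowest adjusted p of 0.52. RGS4, which shortens G protein signals, is an example chosen after its values were seen: it fell by 1.02 with scramble siRNA (adjusted p = 0.00016), its response with OLR1 siRNA was -0.37 (adjusted p = 0.14), and the difference was 0.65 (interval 0.25 to 1.06, adjusted p = 0.86).

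Over all called genes the responses were close to equal in size. The difference itself lay slightly above 0 at the median, both in genes that rose and in genes that fell. Over the 2574 genes called in the average response (14%), the slope through 0 of the difference on the average response corresponded to a ratio of 0.9998 between the response with OLR1 siRNA and that with scramble siRNA, and the median change in the size of the response was -0.0059. Among the 1096 genes that rose (5.95%), 719 had the larger response with OLR1 siRNA (65.6%), and the ratio was 1.112. Among the 1478 that fell (8.03%), 517 had the larger response with OLR1 siRNA (35%), and the ratio was 0.866. A difference above 0 makes a rise larger and a fall smaller. The median difference was 0.055 in genes that rose and 0.048 in genes that fell. Among all genes above the median signal, called or not, 64.6% had a difference above 0, so these shares are near that background. The mean signal of the genes that rose went from 7.23, 7.20 and 7.21 to 7.56, 7.58 and 7.48 with scramble siRNA and from 7.19, 7.18 and 7.18 to 7.61, 7.51 and 7.54 with OLR1 siRNA. This is a response of 0.33 against 0.37, a difference of 0.05 (SE 0.04). The genes that fell had a response of -0.32 with scramble and -0.28 with OLR1 siRNA, a difference of 0.04 (SE 0.04). Both differences are about as large as their own error. Of the 33 genes with an average response of 2-fold or more, 21 had the larger response with OLR1 siRNA and 12 the smaller. This followed the same split by direction: 21 of the 28 that rose had the larger response, and 0 of the 5 that fell. At an unadjusted limma p under 0.05 there were 6 of the 33 (18.2%, against 5.45% of all genes). They were ARRDC3, CYP4F11, FBXO30, NMRAL2P, SLC7A11 and SRXN1. All 6 rose, with the larger response with OLR1 siRNA, and none passed over all genes.

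The difference of responses also moved with signal level, which bears on every group described after this. When all genes were ranked by mean signal into 5 equal sets, the median difference was -0.041 in the dimmest set, -0.041 and -0.014 in the next sets, and 0.037 and 0.054 in the brightest. Replicate 3 of the scramble UV-PAPC arrays had the narrowest spread of signals of the 12, with an interquartile range of 2.93 against 3.01 to 3.17 on the others, and the lowest estimated array weight, 0.444. Without that array the medians were -0.030, -0.026, -0.015, 0.009 and 0.020, and the median difference of genes that rose was 0.014 instead of 0.055. After repeated quantile normalization or cyclic loess, every set had a median within 0.014 of 0. The part of signal level and of this array in the upward shift of genes that rose and fell was not tested further.

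**Figure D4:**
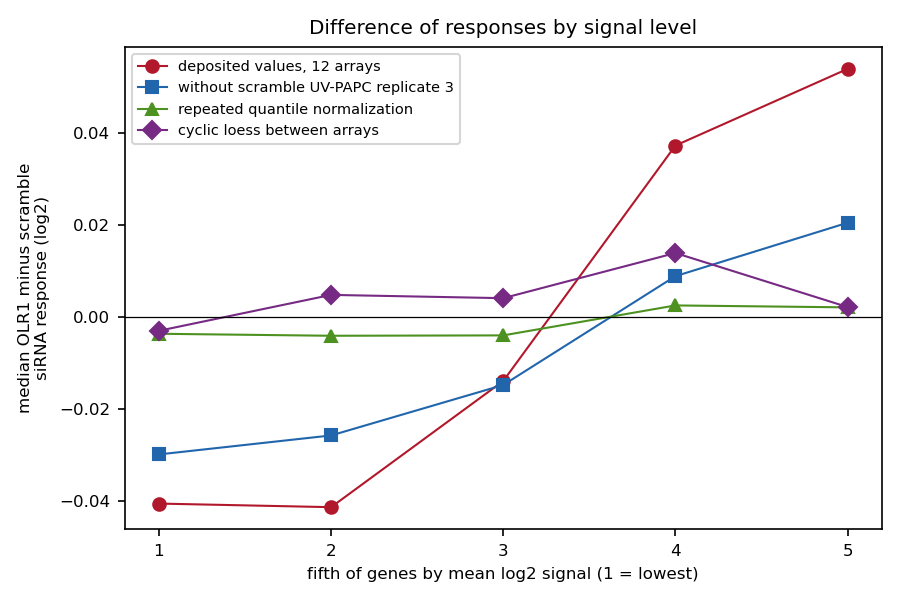
Median difference of responses (vertical axis, log2) in 5 equal sets of genes by mean signal (horizontal axis, 1 is the dimmest), for the deposited values, without replicate 3 of the scramble UV-PAPC arrays, and after 2 renormalizations. The deposited values climb from -0.041 to 0.054, the line without that array from -0.030 to 0.020, and the renormalized lines stay within 0.014 of 0.

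Groups of genes were read against that background, by counts and medians and with no test of a group. The 38 lists held 1043 distinct measured genes, and limma called 0 of them in the difference (background 0%). Over all genes the median difference was 0.0054, and 51.6% of genes lay above 0. That share was 37.2% in the dimmest of the 5 sets by signal and 74% in the brightest. Among genes above the median signal it was 64.6%, with a median difference of 0.040. Above the median signal lay 34 of 34 proteasome, 30 of 32 respiratory chain, 27 of 29 heat shock and 49 of 51 G1/S genes. For such lists 51.6% is not a matched background. Each median below is a difference of responses on the log2 scale. A range beside it covers the alternatives, 21 for most lists, which include leaving out each array.

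Receptors and signalling parts for oxidised lipid had differences around 0. Of 29 measured scavenger and oxidised-lipid receptors, 2 rose and 2 fell with scramble siRNA and 1 rose with OLR1 siRNA. Among all genes 2.67% and 3.46% rose in these responses and 4.64% and 3.25% fell. Their median difference was -0.01, and its sign turned in 6 of the 21 alternatives. TLR4, a receptor for lipopolysaccharide that also answers to oxidised phospholipid and was named after its values were seen, rose by 0.80 with scramble and by 0.79 with OLR1 siRNA (difference -0.01, interval -0.37 to 0.35). TLR6, its relative that pairs with TLR2, read 5.44, 5.36 and 5.60 untreated and 4.76, 5.03 and 4.54 treated with scramble siRNA. With OLR1 siRNA TLR6 read 4.94, 5.04 and 5.34 untreated and 4.67, 4.99 and 4.98 treated, with overlap, and the difference was 0.46 (0.08 to 0.84, adjusted p = 0.904). PTGER2, a prostaglandin E2 receptor that binds oxidised PAPC species, rose by 0.40 with scramble siRNA and had a response of 0.16 with OLR1 siRNA, a difference of -0.24 (adjusted p = 0.904). Of 30 LOX-1 signalling components, 2 fell with each siRNA and 0 were at an unadjusted p under 0.05 in the difference, against 5.45% of all genes. In the arachidonate and prostaglandin list of 33 genes, ALOX5AP, which presents arachidonate to 5-lipoxygenase, had a difference of -0.32 (adjusted p = 0.86) and the acyl-CoA synthetase ACSL4 one of 0.35 (adjusted p = 0.883).

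Most chaperones and many antioxidant genes rose with both siRNAs, and most members of these lists and of the proteasome list had a slightly higher response with OLR1 siRNA. Of 29 heat shock chaperones and co-chaperones, 26 rose with scramble and 27 with OLR1 siRNA, against 2.67% and 3.46% of all genes. The difference was above 0 for 24 of 29, with a median of 0.094 (range 0.036 to 0.121), and was 0.042 without replicate 3 of the scramble UV-PAPC arrays. Of 42 NRF2 targets, 17 rose with scramble and 22 with OLR1 siRNA. The difference was above 0 for 34 of 42, with a median of 0.141 (range 0.099 to 0.171), and 7 members were at an unadjusted p under 0.05, all higher, or 16.7% against 5.45% of all genes. Of them AKR1C3, an aldo-keto reductase, rose by 0.76 and 1.20 (difference 0.44, interval 0.10 to 0.79, adjusted p = 0.904), although AKR1C genes share sequence. FTL, the light chain of the iron store ferritin, rose by 0.60 with scramble and 0.84 with OLR1 siRNA (difference 0.24, interval 0.02 to 0.47, adjusted p = 0.904). Of 34 proteasome subunits and assembly factors, 1 rose with scramble and 7 with OLR1 siRNA. The difference was above 0 for 32 of 34, with a median of 0.119 (range 0.055 to 0.144). PSMD12, a subunit of the regulatory lid, had a response of 0.22 with scramble siRNA and rose by 0.45 with OLR1 siRNA, a difference of 0.23 (adjusted p = 0.904). The medians of heat shock and proteasome genes were 0.049 and 0.055 after quantile normalization, and that of NRF2 targets 0.099.

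Some members of the ATF4 branch of the stress response leaned the other way. Of 39 measured ATF4 genes, 9 rose with scramble and 4 with OLR1 siRNA, against 2.67% and 3.46% of all genes. The median difference was 0.0057, whose sign turned in 7 of the 21 alternatives, and it was -0.064, with 31 of 39 below 0, without replicate 3 of the scramble UV-PAPC arrays. At an unadjusted p under 0.05 there were 4 members (10.3%, against 5.45% of all genes), all lower: CHAC1, DDIT3, DDIT4 and SESN2. CHAC1, which degrades glutathione, read 7.54, 7.44 and 7.46 untreated and 8.23, 8.12 and 7.83 treated with scramble siRNA. With OLR1 siRNA CHAC1 read 7.48, 6.96 and 7.41 untreated and 7.29, 7.13 and 7.31 treated. The treated scramble arrays of CHAC1 were above all others, and the OLR1 siRNA groups overlapped. Its difference was -0.62 (interval -0.98 to -0.26, limma adjusted p = 0.86, range of the difference over alternatives -0.78 to -0.52). DDIT3, the transcription factor CHOP, rose by 0.68 with scramble siRNA and had a response of 0.33 with OLR1 siRNA (adjusted p = 0.085), a difference of -0.35 (-0.68 to -0.02, adjusted p = 0.904). SESN2 and DDIT4, both inhibitors of mTORC1 signalling, rose by 0.52 and 0.47 with scramble siRNA and had responses of 0.19 and 0.15 with OLR1 siRNA. Of 28 ER chaperones and XBP1 targets, 15 had a difference above 0, with a median of 0.035 whose sign turned after cyclic loess, and 1 was at an unadjusted p under 0.05 (3.57%). That gene, HERPUD1, which acts in ER-associated degradation, rose by 0.86 with scramble and by 0.55 with OLR1 siRNA, a difference of -0.31 (-0.54 to -0.08, adjusted p = 0.888).

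**Figure D5:**
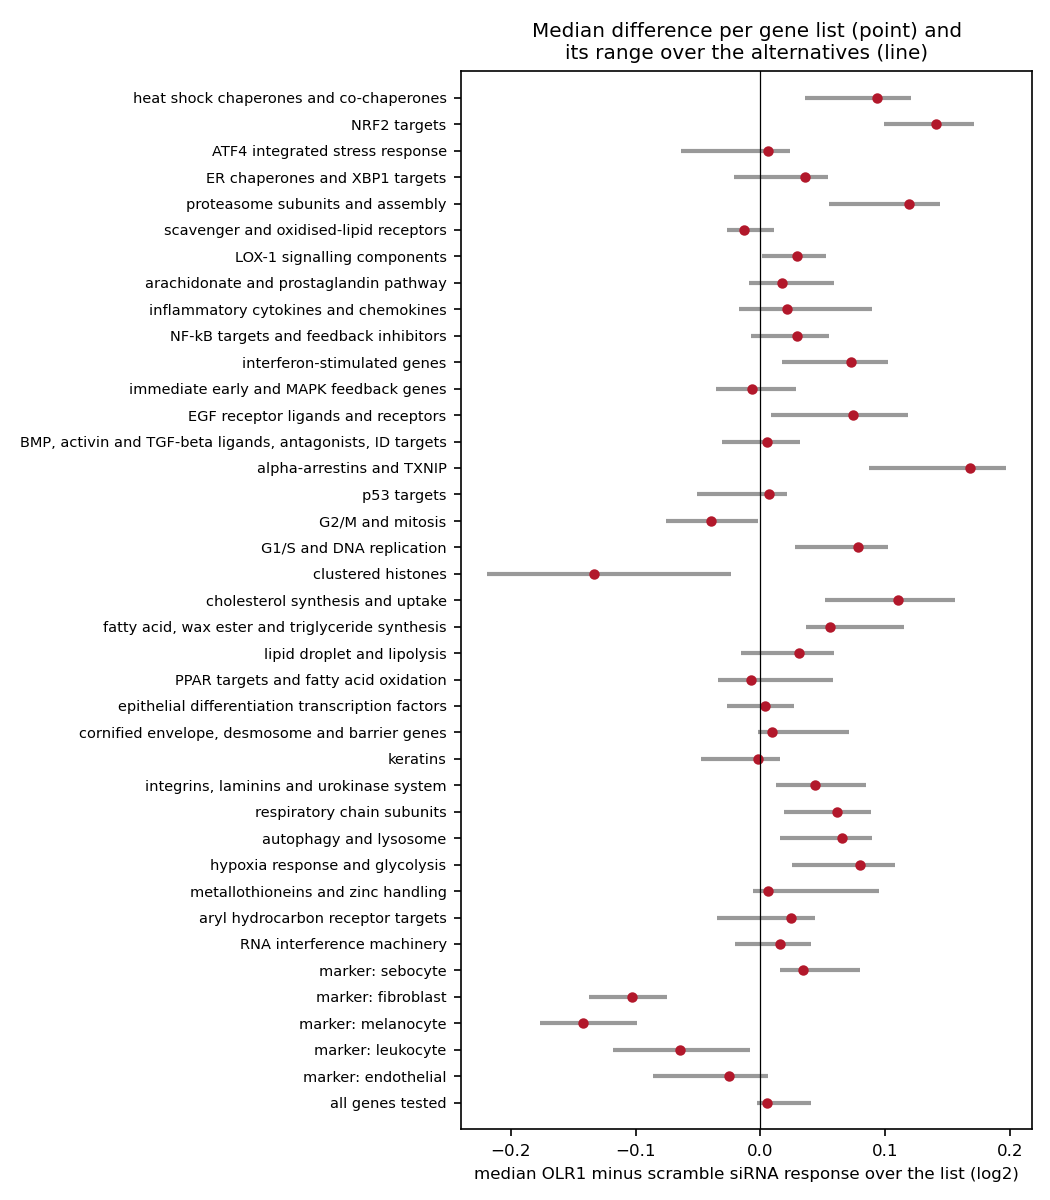
Median difference of responses over the measured members of each of the 38 gene lists and over all genes (points, log2), with the lowest and highest median over the alternatives (lines). The medians lie between -0.142 and 0.168, and no list holds a gene past the adjusted threshold.

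Inflammatory genes had falls with both siRNAs, and LIF, IL1B and TNFAIP3 had a smaller fall with OLR1 siRNA before adjustment. Of 34 cytokines and chemokines, 6 fell with scramble and 7 with OLR1 siRNA, against 4.64% and 3.25% of all genes. The median difference was 0.021 (range -0.017 to 0.089), with 18 above 0 and 16 below. At an unadjusted limma p under 0.05, 5 members were higher and 1 lower (17.6% of the list, against 5.45% of all genes). The lower one was TNFSF10, with a response of -0.01 with scramble siRNA and of -0.47 with OLR1 siRNA, a difference of -0.46. IL1B, the pro-inflammatory interleukin 1 beta, read 7.07, 6.94 and 6.82 untreated and 6.21, 6.22 and 6.04 treated with scramble siRNA. With OLR1 siRNA IL1B read 6.37, 6.10 and 6.10 untreated and 5.85, 5.67 and 5.76 treated. IL1B fell with both, by 0.79 and 0.43, from a lower untreated level with OLR1 siRNA, and the difference was 0.36 (0.09 to 0.63, adjusted p = 0.888). TNFAIP3, the deubiquitinase A20 that limits NF-kB, fell by 0.93 with scramble and by 0.58 with OLR1 siRNA, a difference of 0.35 (0.11 to 0.58, adjusted p = 0.882). Its treated arrays read 7.85, 7.95 and 7.74 with scramble and 7.77, 7.81 and 7.79 with OLR1 siRNA, which overlapped. SAA1, an acute phase protein with a near-identical neighbour, had a response of 0.47 with scramble siRNA and of -0.12 with OLR1 siRNA. Its difference was -0.59 (-0.99 to -0.19, adjusted p = 0.882). Of 41 interferon-stimulated genes, 11 fell with scramble and 9 with OLR1 siRNA, and IFIT2 fell by 1.01 and 0.51, a difference of 0.50 (0.16 to 0.84, adjusted p = 0.882). The median difference of that list was 0.073 (range 0.017 to 0.102), and 0.017 without replicate 3 of the scramble UV-PAPC arrays. In the list of immediate early and MAPK feedback genes, 13 of 38 fell with each siRNA. DUSP6, the phosphatase that turns off ERK, fell by 0.54 with scramble siRNA and had a response of -0.23 with OLR1 siRNA, a difference of 0.31 (adjusted p = 0.904).

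Many mitosis genes and fewer replication genes fell under both siRNAs, and the median differences of these lists had opposite signs. Of 49 G2/M and mitosis genes, 29 fell with scramble and 28 with OLR1 siRNA, against 4.64% and 3.25% of all genes, with a median difference of -0.040 (range -0.075 to -0.002). NEK2, a centrosomal kinase, fell by 0.28 and 0.57, a difference of -0.29 (-0.51 to -0.07, adjusted p = 0.888). Of 51 G1/S and replication genes, 9 fell with scramble and 6 with OLR1 siRNA, and the difference was above 0 for 43 of 51, with a median of 0.078 that was 0.028 without replicate 3 of the scramble UV-PAPC arrays. E2F8, a repressor of the E2F programme, read 7.89, 7.78 and 7.87 untreated and 6.91, 6.92 and 6.74 treated with scramble siRNA. With OLR1 siRNA E2F8 read 8.12, 8.16 and 7.85 untreated and 7.42, 7.43 and 7.41 treated. E2F8 fell with both, by 0.99 and 0.63, and its treated arrays were higher with OLR1 siRNA, a difference of 0.37 (0.12 to 0.61, adjusted p = 0.882). Of 47 clustered histone genes, 6 fell with scramble and 19 with OLR1 siRNA, against the same 4.64% and 3.25%, and the difference was below 0 for 42 of 47. Their median of -0.133 moved between -0.219 and -0.024 over the alternatives. It was -0.046 without replicate 3 of the scramble UV-PAPC arrays and -0.024 with array weights. Histone genes are near-identical copies, so their values are not independent of one another, and their messages mostly lack poly(A) tails.

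Among lipid and energy genes, the called counts differed by list. Of 26 cholesterol genes, 1 rose with scramble and 5 with OLR1 siRNA, against 2.67% and 3.46% of all genes, with a median difference of 0.110 (range 0.051 to 0.156). Of 29 genes of fatty acid, wax ester and triglyceride synthesis, the acyl-CoA synthetase ACSL1 had a response of 0.08 with scramble siRNA and rose by 0.37 with OLR1 siRNA, a difference of 0.29 (0.08 to 0.51, adjusted p = 0.888). PLIN2, a coat protein of lipid droplets named after its values were seen, rose by 0.58 with scramble and by 0.67 with OLR1 siRNA (difference 0.09, interval -0.27 to 0.44). Of 32 respiratory chain subunits 0 were called in either response, against 7.31% and 6.71% of all genes. The difference was above 0 for 29 of 32, with a median of 0.061 that was 0.019 after quantile normalization. All genes above the median signal, where most of these subunits lie, had a median of 0.040. Of 37 hypoxia and glycolysis genes, 3 rose and 3 fell with scramble siRNA and 8 rose and 2 fell with OLR1 siRNA. Among all genes 4.64% and 3.25% fell in these responses. The median difference of the list was 0.079 (range 0.026 to 0.108). In this list ADM, the vasodilator peptide adrenomedullin, read 8.21, 8.21 and 8.21 untreated and 8.96, 9.10 and 8.67 treated with scramble siRNA. With OLR1 siRNA ADM read 7.65, 7.60 and 7.66 untreated and 8.84, 8.70 and 8.75 treated. ADM rose with both, by 0.70 and 1.13, from a lower untreated level with OLR1 siRNA to an overlapping treated level, a difference of 0.43 (0.16 to 0.70, adjusted p = 0.86).

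Epithelial lists had median differences near 0, with single members further out. Of 22 epithelial differentiation transcription factors, 13 fell with scramble and 11 with OLR1 siRNA, against 4.64% and 3.25% of all genes. Their median difference was 0.0034, whose sign turned in 10 of 21 alternatives. GRHL3, which drives barrier formation, fell by 0.95 with scramble and by 1.04 with OLR1 siRNA (difference -0.10, interval -0.33 to 0.13). ELF3, an epithelial ETS factor, fell by 0.98 and 0.91 (difference 0.07, interval -0.13 to 0.28). NOTCH1, the receptor that starts squamous differentiation, rose by 0.70 and 0.48, a difference of -0.22 (-0.43 to -0.02, adjusted p = 0.904). LHX2, a LIM homeobox factor, had a difference of -0.29 (-0.56 to -0.01, adjusted p = 0.904). Of 25 keratins, 3 fell with each siRNA, against the same 4.64% and 3.25%. In the difference 0 of the 25 were at an unadjusted p under 0.05. For 46 cornified envelope, desmosome and barrier genes the median difference was 0.0090 (range -0.0018 to 0.071). At an unadjusted p under 0.05 there were 5 of the 46 (10.9%, against 5.45% of all genes), SBSN at -0.46 and SPRR2A at -0.40, and S100A12 at 0.40, CSTA at 0.33 and SPRR1A at 0.30. SPRR genes code for small proline-rich proteins of the cornified envelope, and those of the SPRR2 group are close copies of one another. Of 16 RNA interference genes, 0 were called in either response, against 7.31% and 6.71% of all genes.

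Markers of other cell types had median differences below 0. All samples were of 1 cell line, SZ95, so these values describe transcripts and are not a measure of other cells. Of 21 fibroblast markers, 18 had a difference below 0, with a median of -0.103 (range -0.137 to -0.075). With scramble siRNA 2 rose and with OLR1 siRNA 0, against 2.67% and 3.46% of all genes. At an unadjusted p under 0.05 there were 4 (19%, against 5.45% of all genes), COL6A2, DPT and ZEB2 below 0 and FAP above. ZEB2, a transcription factor of mesenchymal cells, had a difference of -0.38 (-0.72 to -0.05, adjusted p = 0.904), and FAP, a surface protease of activated fibroblasts, one of 0.50 (0.13 to 0.88, adjusted p = 0.888). The log2 of their summed signal was 10.17 to 10.25 and 10.31 to 10.36 in the untreated and treated scramble groups, and 10.18 to 10.25 and 10.17 to 10.28 with OLR1 siRNA. Of 10 melanocyte markers 7 lay below 0, with a median of -0.142 (range -0.177 to -0.098), and their summed signal lay between 8.97 and 9.28 over all arrays. Of 15 leukocyte markers 10 lay below 0, with a median of -0.064 (range -0.118 to -0.0084), and of 12 endothelial markers 8, with a median of -0.026 whose sign turned after cyclic loess. Most of these genes were dim, the signal range in which the median difference of all genes lay below 0. The part of that trend in their medians was not tested. The 28 sebocyte markers had a median difference of 0.034 (range 0.016 to 0.079) and summed signals of 13.29 to 13.44 over all arrays.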

How the data were processed

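Total RNA of 12 samples of SZ95 cells, 100 ng each, was labelled and hybridised to 1-colour arrays. The authors deposited log2 signals, which per the submitters' processing notes came from RMA, run in the Affymetrix Expression Console (version 1.3.1.187). RMA subtracts background, quantile-normalizes and summarises probes. The number of arrays limits the precision, and the labels do not say that replicates were separate cultures, so the spread behind each p-value may be technical. Of 33297 entries, 19460 had 1 gene symbol, 1754 several and 12083 none. Of the 19460, 19429 were matched by Entrez number and none changed symbol. Genes with several probe sets (769) kept the one of highest mean, which left 18417 genes and no filter on low signals. limma 3.58.1 (R 4.3.3) fitted 4 group means with default eBayes, two-sided, with Benjamini-Hochberg adjustment over all genes and a threshold of 0.05. The fit was checked on simulated data. The average response is orthogonal to the difference in this balanced design. Genes named were OLR1, the 10 of lowest p in each direction, the 10 highest and lowest in the average response, and the 2 of lowest p in each list, leaving out small, antisense and unnamed RNAs. Alternatives were the eBayes prior, array weights, a signal filter, the probe set rule, all entries, scaling, a replicate block and leaving out each array. The members and gene lists were chosen with earlier results of these data known. Figures were drawn with matplotlib 3.10.9.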

Additional observations from a re-analysis of the deposited data

How the results depend on the processing

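The count of genes called in the difference of responses was 0 under all 21 alternatives and in the test of genes called in the average response alone, an alternative added after seeing the data. The lowest adjusted p ran from 0.0812, without OLR1 UV-PAPC replicate 2, to 0.957, without scramble UV-PAPC replicate 3. With the replicate number as a block 0 genes were called (lowest adjusted p 0.525), with 1309, 1220 and 2564 calls in the scramble, OLR1 siRNA and average responses, and no count moved by over 1.5 times. The labels do not say whether the numbers pair the samples. Deviations of same-numbered arrays correlated at -0.221 to 0.263, with 6 of 18 pairs over 0.1, which does not settle it. Leaving out 1 array gave 868 to 1340 calls with scramble siRNA. It gave a median change in response size of -0.03212 to 0.01312. The genes with an interval inside ±0.5 numbered 8745 among genes above the median signal and 24781 among all entries, because fewer and more entries were tested. Leaving out 1 array gave 15290 to 16261 such genes. The median difference of genes that rose was 0.01694 after repeated quantile normalization, and 0.01399 to 0.08438 with 1 array left out. Of 2160 values of 105 named genes, 2142 kept their direction without passing the threshold, 0 passed it and 18 reversed. DNAJB1 came to -0.06855 with array weights, -0.01743 after quantile normalization and -0.01898 after cyclic loess. DNAJB4 came to -0.03382 after quantile normalization and CYP1B1 to -0.01583 after cyclic loess. With 1 array left out, HMOX1 ran from -0.1996 to 0.054, DNAJB1 from -0.06003 to 0.09634, DNAJB4 from -0.03269 to 0.1512, MACC1 from -0.007083 to 0.1484 and CYP1B1 from -0.08068 to 0.1231. The cause of these reversals was not tested. With 3 arrays per group, differences of responses under about 0.25 on the log2 scale lie within the typical unadjusted interval. Larger ones were not called either, among them the 39 genes that reached 0.5 in size. Dim genes have signals near background and fold changes that RMA compresses.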

Other observations

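Small RNA genes, which the rule for named genes left out, stood among the genes of lowest p in the difference of responses. These genes were chosen after their values were seen. SNORD12C, a small nucleolar RNA that guides methylation of ribosomal RNA, had means of 7.28 ± 0.01 untreated and 6.79 ± 0.03 with UV-PAPC under scramble siRNA (SD, n = 3). Under OLR1 siRNA SNORD12C had means of 7.18 ± 0.04 and 7.38 ± 0.23 (SD, n = 3). It fell by 0.49 with scramble siRNA (limma adjusted p = 0.00244), its response with OLR1 siRNA was 0.20 (adjusted p = 0.224), and the difference was 0.69 (95% interval 0.42 to 0.96, adjusted p = 0.52). SNORD78 had a difference of 0.43 (0.23 to 0.64, adjusted p = 0.52) and SNORD34 one of 0.42 (0.21 to 0.62, adjusted p = 0.577). All 3 leaned to a higher response with OLR1 siRNA. Of 192 measured small nucleolar and Cajal body RNA genes, 0 were called and 23 (12%) were at an unadjusted limma p under 0.05, of which 20 were higher and 3 lower. That stands beside 5.45% of all genes. The median difference of the 192 was 0.038. Small nucleolar RNAs mostly lie in introns of host genes, and probes for them can also take up unspliced host transcript. MIR182, a microRNA gene at low signal, had means of 3.85 and 4.18 with scramble and of 4.12 and 3.73 with OLR1 siRNA, untreated and treated, a difference of -0.72 (-1.05 to -0.38, adjusted p = 0.52).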
